A study of Drosophila melanogaster with 3 samples.

Results

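The 371 peaks described here are regions enriched in immunoprecipitation of a tagged forkhead factor. They lie inside introns, far from any annotated start of transcription. They were taken from a list of 2919 peaks that the authors had thresholded on the irreproducible discovery rate (IDR), a measure of how well peak ranks repeat between replicates. A peak was a member if its summit, the position of highest enrichment, lay between the exons of a transcript and more than 5000 bp from every annotated transcription start site (TSS). Such peaks made up 12.7% of the IDR list, with a 95% Wilson interval of 11.6% to 14.0%. The rule used position only, and no measured level entered it. The other IDR summits fell within 500 bp of a TSS (1230 peaks, called promoter peaks here), in introns nearer to a TSS (851), between genes (372) or in exons (95).

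The data came from chromatin immunoprecipitation sequencing (ChIP-seq) of whole Drosophila melanogaster embryos, 8 to 14 hours old and of both sexes. All embryos carried fd64A, the gene also named FoxL1, fused at its C terminus to GFP as a transgene in 1 stable line. There was 1 group of 3 biological replicates from that line and no second condition, no untagged line and no other age, so members were compared with their own surroundings and with other peaks. The labels disagree, with one field naming input controls and the assay and antibody fields an immunoprecipitation, and the samples were treated as immunoprecipitations. Each sample pools whole embryos, so a peak does not show in which cells the factor was bound.

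Forkhead factors bind DNA through a winged-helix domain that reads short A/T-rich words such as GTAAACA. Introns of long developmental genes in Drosophila often hold enhancers, stretches of DNA to which such factors bind and which act on promoters at a distance. FoxL1 is known from the fly embryo for a part in the placement of internal organs. Whether any peak described here is an active enhancer was not measured.

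The forkhead word was defined as the letters GTAAACA with G or A at the first base and C or T at the sixth, on either strand. The bases within 50 bp of the summit on each side are shown for the 8 strongest members on the arms whose sequence is printed here that held at least 2 such words and ranked high in every replicate. They are listed by falling peak strength, on the forward strand of dm6, with the words, in either direction, in capitals.
S, chr2L:1072338-1072438: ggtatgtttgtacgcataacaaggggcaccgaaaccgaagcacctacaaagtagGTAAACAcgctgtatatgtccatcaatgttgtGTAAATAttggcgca
cic, chr3R:20285837-20285937: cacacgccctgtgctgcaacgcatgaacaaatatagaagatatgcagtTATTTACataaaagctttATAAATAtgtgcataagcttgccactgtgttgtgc
gukh, chr3R:18998088-18998188: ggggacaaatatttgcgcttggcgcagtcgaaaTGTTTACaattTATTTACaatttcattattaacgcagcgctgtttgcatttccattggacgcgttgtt
pum, chr3R:9127032-9127132: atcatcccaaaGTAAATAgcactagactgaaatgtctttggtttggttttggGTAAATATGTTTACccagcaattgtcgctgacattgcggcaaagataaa
SKIP, chr3R:22146211-22146311: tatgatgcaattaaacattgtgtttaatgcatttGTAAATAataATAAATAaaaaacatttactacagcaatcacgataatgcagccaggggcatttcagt
Tsp66E, chr3L:8925841-8925941: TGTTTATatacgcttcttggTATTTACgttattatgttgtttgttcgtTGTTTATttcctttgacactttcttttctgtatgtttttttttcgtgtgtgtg
aop, chr2L:2168355-2168455: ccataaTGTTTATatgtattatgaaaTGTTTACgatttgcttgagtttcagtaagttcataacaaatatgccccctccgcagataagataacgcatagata
Bsg, chr2L:8097588-8097688: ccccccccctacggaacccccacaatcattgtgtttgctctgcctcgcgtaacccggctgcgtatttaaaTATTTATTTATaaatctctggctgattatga

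Neighbouring words were arranged in many ways. In the window of Star (S) the words stood 32 bp apart from start to start, in that of the capicua gene (cic) 18 bp apart on opposite strands, and in that of pumilio (pum) 2 of the 3 lay 7 bp apart on opposite strands. Among all members, 35 neighbouring pairs of words occurred, of which 22 had both words on the same strand and 10 had word starts under 8 bp apart. A spacing of 20 bp was seen in 4 pairs, all on the same strand, in Prosap, SKIP, Tsp66E and aop. In the 5 pairs 4 bp apart the words overlap, as ATAAATA does with itself in Bsg and GTAAATA with ATAAATA in Dyrk2. The next windows are the strongest printable ones with no forkhead word by the definition above. The vn window does hold TGTTTGT, the reverse complement of ACAAACA, which matches a variant of the forkhead word tested further below.
Gug, chr3L:8458290-8458390: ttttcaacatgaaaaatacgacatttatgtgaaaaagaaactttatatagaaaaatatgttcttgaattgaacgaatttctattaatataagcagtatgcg
vn, chr3L:5824226-5824326: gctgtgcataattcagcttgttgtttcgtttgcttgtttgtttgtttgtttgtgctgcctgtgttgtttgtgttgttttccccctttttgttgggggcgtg

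The forkhead word was more frequent at these distant summits than beside them. It occurred within 50 bp of the summit in 130 of 371 members, a share of 35.0% (95% Wilson interval 30.4% to 40%). In windows of the same length centred 500 bp to the left of the same summits the share was 20.2%, and to the right 15.9%. The ratio of the summit share to the mean of both flanks was 1.94. The difference passed the exact McNemar test, which compares each summit with its own flank, on the left (adjusted p = 4.89e-06, Benjamini-Hochberg, BH) and on the right (adjusted p = 1.30e-08). Of all 271592 consecutive windows of that length in deep intron, 14.2% held the word.

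Each replicate showed the difference at its own summits. The members' peaks in replicate 1 had the word at 33.3% of summits, those in replicate 2 at 33.3% and those in replicate 3 at 36.7%. The ratios to their flanks were 2.06, 1.75 and 2.17. All 3 replicates lay well above 1, with replicate 2 the lowest. In the plot of word density against distance from the summit, members had 4.80 words per kb in the 50 bp on one side of the summit and 4.37 on the other. In the next bins out the density was 2.965 and 3.99, and at 100 to 150 bp it was 2.695 and 1.94.

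**Figure D1:**
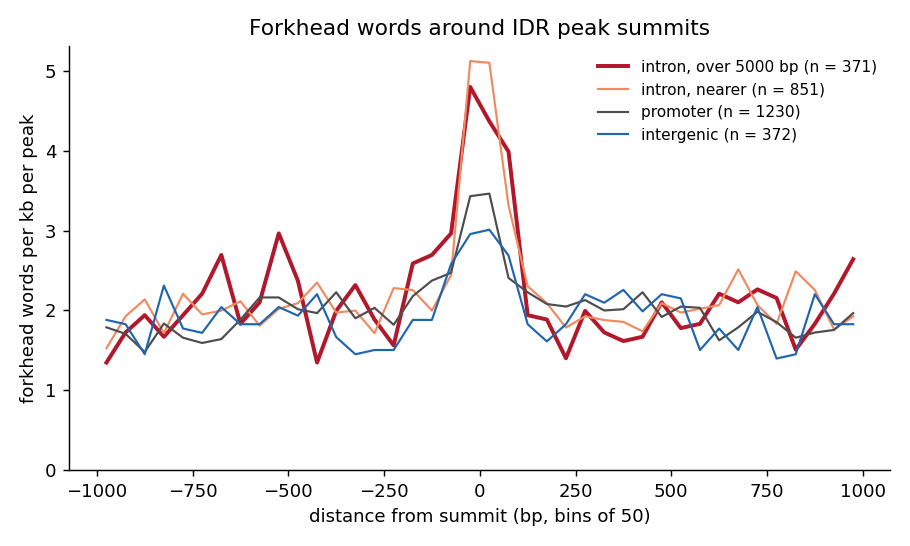
Forkhead words per kb per peak (y axis) in 50 bp bins of distance from the summit (x axis, bp) for 4 classes of IDR peaks, each line 1 class. The line for 371 members peaks at the summit, as does that of the 851 nearer intronic peaks, and both stand above promoter and intergenic peaks there.

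Members differed from promoter and intergenic peaks in the share with a forkhead word, and not detectably from nearer intronic peaks. Over the whole IDR list 29.9% of summits had the word. The share was 36.8% in nearer intronic peaks (odds ratio of members to these 0.927, adjusted p = 0.605, two-sided Fisher's exact test with BH over 4 comparisons), 25.4% in promoter peaks (odds ratio 1.58, adjusted p = 0.00103) and 23.4% in intergenic peaks (odds ratio 1.77, adjusted p = 0.00103). Against all other IDR peaks together, at 29.1%, the odds ratio was 1.31 (adjusted p = 0.0282, Fisher's exact test). By the same exact test, that last call and the one against promoters were lost when the list was cut to peaks that ranked high in both other replicates, with adjusted p = 0.305 and 0.0751 without replicate 1 and 0.280 and 0.0907 without replicate 3, and the first also without replicate 2 (adjusted p = 0.108). The difference from intergenic peaks passed in each of these subsets.

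**Figure D2:**
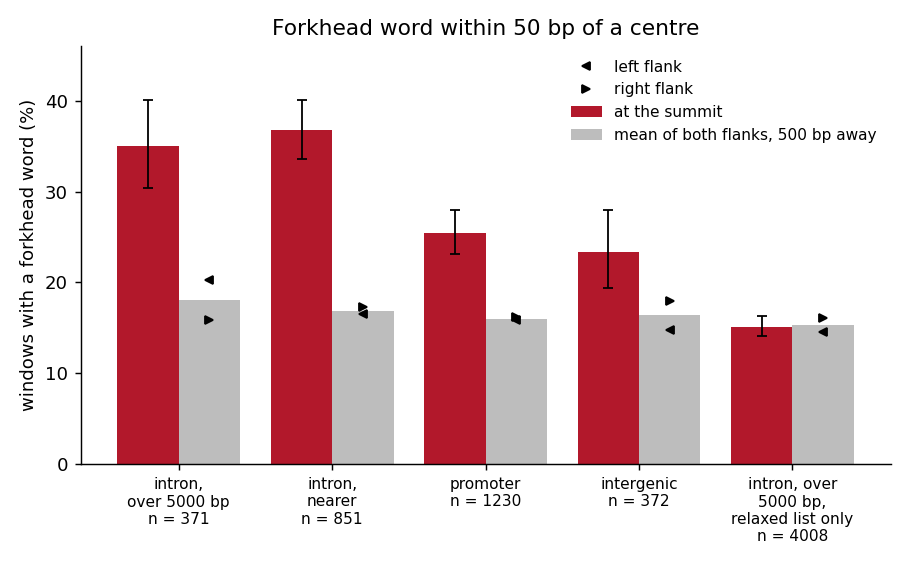
Share of windows (y axis, %) with a forkhead word at the summit (red bars with 95% Wilson intervals) and in flanks 500 bp away (grey bars, mean; triangles, left and right), for 4 classes of IDR peaks and for deep intronic peaks found in the pooled relaxed list only. The summit bar of members is 35.0% against 18.1% in flanks, and in the 4008 relaxed peaks the summit bar (15.1%) is level with the flanks.

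Deep intronic peaks that failed the IDR threshold had no detectable excess of the word. The pooled relaxed list of 30000 peaks, which by its description includes background, held 4446 deep intronic summits, of which 4008 overlapped no IDR peak. The word occurred at 15.1% of these, against 15.3% in their flanks (ratio 0.989, larger adjusted p of the exact McNemar test 0.444). Members had it more often, with an odds ratio of 3.02 (p = 3.47e-19, two-sided Fisher's exact test). These relaxed peaks are weaker, and how well their summits are placed was not tested.

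The 4 letter forms were not alike. GTAAACA occurred at 9.16% of members' summits, 4 times its flank share, and GTAAATA at 11.9%, 2.51 times. ATAAACA occurred at 9.16%, 1.94 times, while ATAAATA at 10.2% was 1.19 times its flanks and passed neither flank test (adjusted p = 1.00 and 0.385, exact McNemar). The first 3 passed on both sides. By number of sites among the 165, GTAAATA came first with 52, then ATAAATA with 40, ATAAACA with 38 and GTAAACA with 35.

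Most members had no word or 1. There were 241 with none, and 29 had at least 2, of which 24 had exactly 2, 4 had 3 and 1 had at least 4. The share with at least 2 was 7.82% in members and 7.65% in other IDR peaks (odds ratio 1.02, p = 0.917, two-sided Fisher's exact test). Words lay on the strand of the host gene in 74 cases and on the opposite strand in 88, over the 366 members whose host genes all run in 1 direction (45.7%, exact binomial p = 0.307). The word was present in 39.8% of members at or above the median signal and 30.3% of those below it (odds ratio 1.52, p = 0.0643, Fisher's exact test). It was present in 33.5% of members farther from a TSS than the median and in 36.6% of those nearer (p = 0.587, Fisher's exact test). Members with the word ranked high in every replicate in 60.8% of cases and members without it in 58.5% (p = 0.740, Fisher's exact test), and none of these last 3 tests passed.

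Base composition differed between summits and flanks, and little between members with and without the word. GC content averaged 38% ± 8.22 (SD over 371 windows) at members' summits and 40.2% ± 9.11 in their flanks. It was 37.6% ± 7.13 in the 130 members with a forkhead word and 38.2% ± 8.76 in the 241 without. Among windows at or under the median GC of 39.6%, 36.5% of summits and 26% of flanks had the word, a ratio of 1.40. Among windows above it the shares were 32.9% and 10.5%, a ratio of 3.13. The summit share was higher on both sides of the median, by Fisher's exact test with p = 0.00911 and p = 4.24e-09, in a split chosen after the data were seen. That test pooled both flanks of all members as separate windows and did not use the pairing of summit and flank.

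A motif passed against members' flanks if the exact McNemar test with BH passed on the left flank. The right flank had to have the same direction and an unadjusted p under 0.05. Among 30 motifs of embryonic factors, 3 (10%) passed, and all 3 were forkhead words. These were the definition above, GTAAACA alone, and a variant. The variant has the letters ATAAACA with T or C at the second base and C or T at the sixth. Its first base is always A, so it leaves out GTAAACA and GTAAATA. In windows within 100 bp a motif of Scalloped passed as well, and its direction at that width is not reported here. Within 50 bp the Scalloped motif was lower at summits, at 3.50% against 6.87% in flanks, and did not pass. The variant occurred at 38.3% of members' summits, 2.09 times its flanks, and in 16.9% of all deep intronic windows. Against other IDR peaks 2 of 30 motifs (6.67%) passed. The forkhead variant was higher in members, at 38.3% against 29.3% (odds ratio 1.495, adjusted p = 0.0171, Fisher's exact test). It did not pass against nearer intronic peaks at 33.8% (adjusted p = 0.152 over 4 classes, Fisher's exact test). A pair of CGATA words, bound by the boundary factor BEAF-32, occurred in 2 members (0.539%) and in 3.06% of other IDR peaks (adjusted p = 0.0468, Fisher's exact test), of which promoter peaks had 4.47% and nearer intronic peaks 1.76%. In deep intronic windows as a whole the pair was in 0.975%. The forkhead definition of the first comparison was not among the 2, at an adjusted p of 0.127 over the 30 motifs.

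Each of the 8192 possible words of 7 bases was tested on both strands by the same rule, with BH on the left flank only. Of these, 2 passed (0.0244%), and 123 higher and 77 lower had an unadjusted p under 0.05 on the left. The choice of flank mattered. ACAAACA, with a ratio of 3.54, did not pass, at an adjusted p of 0.103 on the left and an unadjusted p of 4.04e-07 on the right (exact McNemar). ACAAATA occurred at 55 members' summits (14.8%), against 13.0 per flank, a ratio of 4.23. ATATTTG, whose reverse complement is CAAATAT, occurred at 46 (12.4%) against 15 per flank, a ratio of 3.07. They overlap in ACAAATAT, which was in 22 members, in 3 left flanks and in 7 right flanks. Across all deep intronic windows ACAAATA was in 4.01% and ATATTTG in 4.08%. Against flanks 1000 bp away ATATTTG did not pass, while ACAAATA did. Of the 55 members with ACAAATA, 30 had none of the 4 forkhead words above, and 160 members (43.1%) had either. ACAAATA is itself a form of the forkhead variant in the motif list, so the results for ACAAATA and the variant are not independent.

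Neither word passed a test of members against other IDR peaks over the whole search. ACAAATA was at 8.67% of the other IDR summits, 10.2% of nearer intronic, 6.42% of promoter and 11.3% of intergenic ones. Of the 8192 words none (0%) passed there by Fisher's exact test with BH, 265 had an unadjusted p under 0.05, and that of ACAAATA was 0.000397. The 3 strongest printable members with ACAAATA and none of the 4 forkhead words are shown, with ACAAATA in either direction in capitals.
fz, chr3L:14304008-14304108: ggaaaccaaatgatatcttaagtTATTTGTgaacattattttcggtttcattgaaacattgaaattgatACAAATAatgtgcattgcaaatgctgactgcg
bab1, chr3L:1086387-1086487: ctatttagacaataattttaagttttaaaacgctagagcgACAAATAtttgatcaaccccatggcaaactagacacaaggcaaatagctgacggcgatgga
pyd, chr3R:8926045-8926145: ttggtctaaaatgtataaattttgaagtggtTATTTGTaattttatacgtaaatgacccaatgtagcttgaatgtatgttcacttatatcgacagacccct

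Members were less often among the strongest IDR peaks than others were, and no difference in repeatability passed the test. Repeatability was measured as overlap by at least 1 bp with the 2919 leading peaks of a replicate by signal. Replicate 1 had 318 members among its leading peaks (85.7%), replicate 2 had 276 (74.4%) and replicate 3 had 317 (85.4%), a mean of 81.8% ± 6.46 (SD, n = 3). Replicate 2 was the lowest. All 3 replicates shared 220 members (59.3%), 102 were in 2 of them, 47 in 1 and 2 in none. In the whole IDR list 57.8% were shared by all 3, and no comparison of members with another class passed (adjusted p from 0.804 to 0.899, Fisher's exact test). Across members the signals of replicate pairs had Spearman correlations of 0.644, 0.666 and 0.623, over 370, 368 and 367 members. The replicates share 1 input alignment.

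By strength, 74 members (19.9%) lay among the strongest 25% of the IDR list, ranked by signal. This was fewer than of promoter peaks, at 28.1% (adjusted p = 0.00617, Fisher's exact test), and of all other IDR peaks, at 25.7% (adjusted p = 0.0349). By the same exact test it passed neither against nearer intronic peaks, at 24.7% (adjusted p = 0.103), nor against intergenic ones, at 21.8% (adjusted p = 0.588). With ranks averaged over replicates 2 and 3 only, members had 21.3% there and the comparison with all others no longer passed (adjusted p = 0.166, Fisher's exact test). The members' deposited signal, in the authors' own units, ran from 190 to 2380 with a median of 272, against 276 in the whole list.

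The strongest member lay in sbb (scribbler, also brakeless, a transcriptional corepressor), 20112 bp from the nearest TSS and within an intron of 65649 bp. Its signal was 914 in replicate 1, 659 in replicate 2 and 820 in replicate 3, and it ranked 5 in the IDR list. It held 3 GTAAATA words. The next was in S, which encodes Star, a protein needed to release ligands of the epidermal growth factor receptor (EGFR), with 489, 386 and 482 and a rank of 23. Both ranked among the leading 41 peaks of every replicate. Over all members the median signal was 109, 80.4 and 94.3 in the 3 replicates, so that replicate 1 was the highest and replicate 2 the lowest there too.

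Members of rank 29 to 82 followed in 6 genes or groups of genes. Lrch, a leucine-rich repeat protein, had a member of rank 29 with 504, 402.4 and 425.5. Rank 41 fell in overlapping genes CG46321, CG12912 and Hr3, so that its host is ambiguous, with 490.5, 336.5 and 408.1. Both had the order of the members' medians. Gug, the Atrophin corepressor, had rank 43 with 495, 347 and 365. Hr4, a nuclear receptor of the ecdysone response, had rank 64 with 419, 312 and 328. At rank 73, fra (frazzled, a netrin receptor) had 407, 286.5 and 346. These 3 had that order too. The member in cic, a repressor that is switched off by receptor tyrosine kinase signalling, at rank 82 had 320, 324 and 321.

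The other 12 of the 20 strongest were in apt, vn, caps, fz, CG6959, Raf, CG32486, simj, tai, Hr4 again, bab2 and crp, at ranks 117 to 280. Of these genes, 3 belong to EGFR or Wnt signalling: vn encodes the ligand Vein, Raf the kinase below the receptor, and fz the receptor Frizzled. Several encode nuclear regulators, such as tai, a coactivator of the ecdysone receptor, bab2, a BTB-domain factor, and crp, a basic helix-loop-helix factor. Among the 20 strongest, the member in simj had the largest ratio between replicates, with signals of 338, 98.3 and 246. Its ranks in the 3 lists were 126, 1016 and 167. All 20 were among the leading peaks of every replicate. A forkhead word was present in 9 of the 20.

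**Figure D3:**
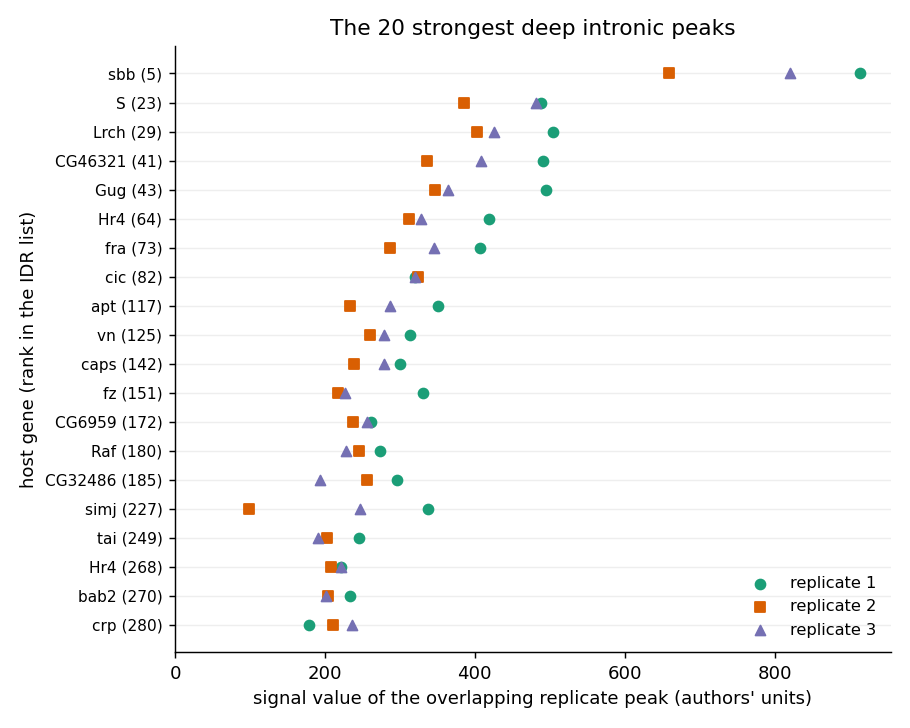
Signal value (x axis, authors' units) of the overlapping peak in each of 3 replicates (markers) for the 20 strongest members, by host gene with the rank in the IDR list in parentheses (y axis). The sbb member stands apart at 659 to 914, and the simj member lies at 98.3 in replicate 2 and 338 in replicate 1.

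The 371 members fell in 226 host genes, the host being the shortest protein-coding gene where several overlap (18 members). There were 145 hosts with 1 member, 44 with 2 and 37 with at least 3, the last holding 138 members. Members lay in the first intron of the longest containing transcript in 137 cases (36.9%), and the host intron had a median length of 20759 bp (from 529 to 139347). The nearest TSS belonged to the host in 228 cases (61.5%) and to another gene in the rest. In 6 cases the host was a non-coding gene, and 12 members overlapped another member.

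The host with the most members was sbb, with 8. Replicates 1, 2 and 3 had 8, 6 and 8 leading deep intronic peaks there. Of its 8 members, 5 had a forkhead word. The gene hth, which encodes Homothorax, a homeodomain partner of Extradenticle, had 6 members over a gene of 132 kb, with 1 forkhead word among them and the strongest at rank 1674 only. Its leading peaks numbered 5, 4 and 3.

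With 5 members each followed SKIP (a partner of the Shal potassium channel), cic, kirre (an adhesion molecule of muscle founder cells, also called Dumbfounded), rdx (Roadkill, an adaptor for degradation of Ci) and tara (taranis, a nuclear regulator). All 5 members of cic were shared by every replicate, and its counts were 5, 5 and 5. SKIP had 4, 6 and 6, kirre 6, 4 and 5, rdx 5, 5 and 4, and tara 6, 3 and 6. The forkhead word was in 2 members of SKIP and 3 of cic, and in none of kirre, rdx and tara. Those with 4 members that come first by name were CG45088, Eip75B, Hr4, NetA and PRAS40, with counts from 2 to 5 in a replicate. Eip75B and Hr4 are nuclear receptors of the ecdysone response, and NetA is a netrin, a ligand of fra.

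**Figure D4:**
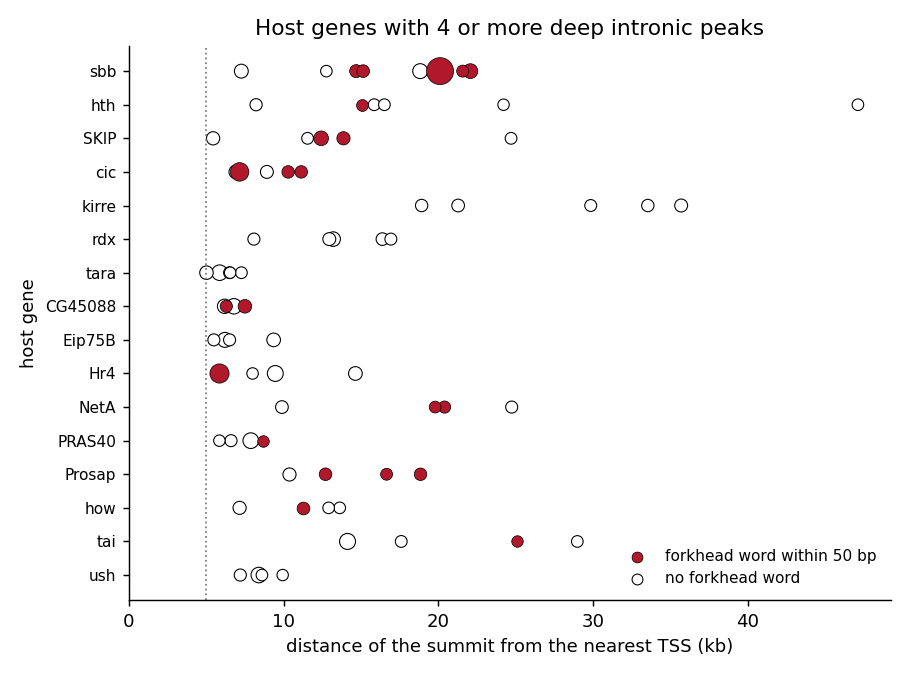
Distance of each member's summit from the nearest TSS (x axis, kb) in the host genes with at least 4 members (y axis), 1 circle per member with an area that grows with its signal, red with and white without a forkhead word. Members of hth and kirre reach 47119 and 35694 bp, while those of tara lie between 5014 and 7270 bp.

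Distance from the TSS had a median of 8706 bp and reached 47119 bp. There were 142 members between 5000 and 7500 bp, 80 up to 10000 bp, 73 up to 15000 bp, 43 up to 20000 bp and 33 beyond. The 5 nearest to the threshold on the inside lay in SNF4Agamma, Mnt, tara, spin and sgg, at 5006 to 5053 bp, with signals of 229 to 404. The 5 just outside lay at 4931 to 4984 bp, with signals of 224 to 869.

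Relative to the sequence available, deep introns held fewer summits than introns near a TSS and more than intergenic sequence over 5000 bp from a TSS. Deep intron and deep intergenic sequence were not matched for distance beyond that cut. Deep introns cover 28.3 Mb, 21.1% of the sequenced bases of the arms used, and had 13.1 IDR summits per Mb (12.6 ± 0.873 over the leading peaks of the replicates, SD, n = 3). Nearer introns had 34.7 per Mb, a density ratio of 0.379 (adjusted p = 1.12e-59, exact binomial test on bases). Intergenic sequence beyond 5000 bp had 108 summits and 5.43 per Mb, a ratio of 2.42 (adjusted p = 5.39e-18, exact binomial test), with 2.42, 2.26 and 2.47 in the replicates. Soft-masked repeats made up 25.9% of deep intron and 31.7% of deep intergenic bases, and on the remaining bases the second ratio was 2.00 (adjusted p = 1.16e-09, exact binomial test). How many reads can be placed uniquely in either was not tested.

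Density fell with distance in introns, from 51.5 per Mb at 500 to 1000 bp to 21.7 at 5000 to 7500 bp. It was 6.74 at 20000 to 50000 bp, the last bin, and sequence beyond 50000 bp was left out of the bins. Intergenic density over the same bins was 25.8, 9.03 and 1.94. The intergenic values were lower in every bin. Between 7500 and 15000 bp the exact Poisson intervals of both overlapped, with 13.2 (10.3 to 16.6) in introns and 8.85 (5.92 to 12.7) between genes at 10000 to 15000 bp.

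**Figure D5:**
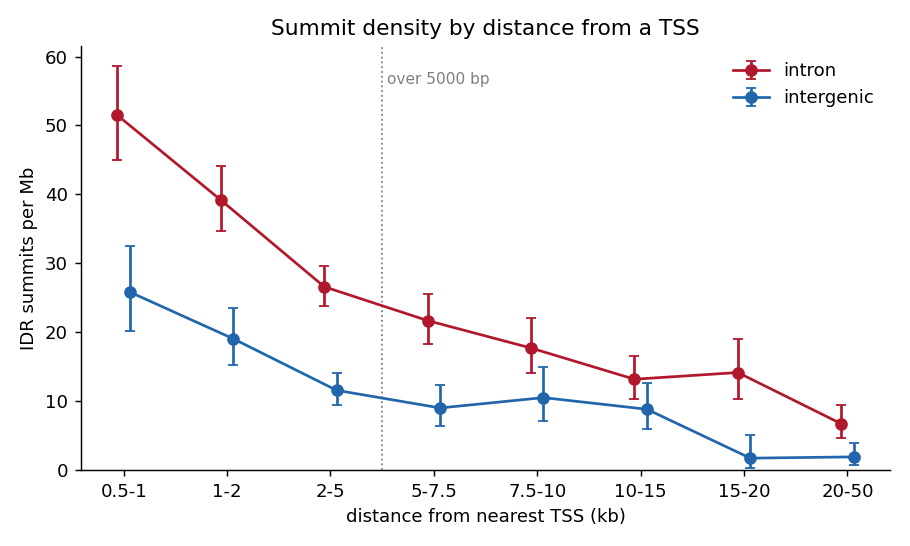
IDR summits per Mb (y axis) in intronic (red) and intergenic (blue) sequence by distance from the nearest TSS (x axis, kb, unequal bins), with exact 95% Poisson intervals that cover counting error only. Intronic points lie above intergenic ones in each bin, at 21.7 against 9.03 per Mb just past 5000 bp.

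Members were unevenly spread over the chromosome arms in 1 case. Arm 2L held 82 members (22.1%) but 14.6% of deep intronic bases, a ratio of 1.51 (adjusted p = 0.000738, exact binomial test with BH over 6 arms), and the leading deep intronic peaks of the replicates had 20.4%, 22.6% and 21.2% there. The call was lost among members in the upper 50% of the IDR list by signal (ratio 1.34, adjusted p = 0.423, exact binomial test) and without replicate 2 (ratio 1.39, adjusted p = 0.0614). No other arm passed the exact test, the X having 60 members at a ratio of 0.852 (adjusted p = 0.371) and chromosome 4 none (adjusted p = 0.257).

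Another IDR summit lay within 2000 bp of 95 members (25.6%), near the 27.1% of the whole list. Nearer intronic peaks had one in 32.8% of cases (odds ratio 0.706, adjusted p = 0.0501, Fisher's exact test), which did not pass. A peak at the host's own promoter was present for 72 of the 226 hosts (31.9%, Wilson interval 26.1% to 38.2%). Of the 440 protein-coding genes with the most deep intron, 320 had no member, and among these 47 had a promoter peak (14.7%, 11.2% to 19.0%). The comparison was set up with the peak lists seen and has no test.

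Whether a gene carried a member moved with the length of its deep intron. Of 1759 protein-coding genes with any deep intronic sequence, 232 (13.2%) carried a member, counting every overlapping host. Over 4 groups of these genes of near equal size, from the least to the most deep intron, the share was 1.14%, 7.50%, 16.9% and 27.3%. Members per Mb of deep intron were 23.6, 31.9, 22.5 and 10.1 in the same groups and 13.4 over all these genes. Gene lists are given with the share of genes and members per Mb, and both moved with length. They have no test of their own.

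Genes of transcription factors and cofactors carried members in 23 of 74 cases (31.1%), or 37.4 members per Mb. Among the names that matched the annotation, the strongest were in sbb, Hr4, tai and bab2. Hr3, in the group of overlapping genes at rank 41, was not counted in this list. The list also counts E23, with 3 members, although that gene encodes an ABC transporter. CHES-1-like, another forkhead gene, and CrebA, a secretory regulator, had none, and CHES-1-like has only 274 bp of deep intron although 9 IDR summits lie within the gene. Neither FoxL1 itself nor fkh, the founding forkhead gene, has any deep intron, and neither gene held an IDR summit.

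Receptors, ligands and other signalling genes carried members most often among the lists, in 28 of 58 cases (48.3%), with 29.7 per Mb. Their strongest members were in S, vn, fz and Raf. Others lay in N, the Notch receptor (rank 362), Dad, an inhibitor of Dpp signalling (446), pnt (519) and aop (804), ETS factors of opposite action below EGFR, and in the ligand genes dpp, hh, bnl, jeb and Wnt6 at ranks 1293 to 2668. Alk, the receptor of Jeb, and CaMKII had none, with 0.321 and 8.43 kb of deep intron. Ligand genes without a member included Pvf1, Pvf2, Ser, Wnt4, pyr, ths, upd3 and wg. Their deep intron ran from 0.630 kb in Pvf1 to 17.1 kb in ths.

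Axon guidance and neuronal adhesion genes carried members in 12 of 57 cases (21.1%, 17.8 per Mb), led by sbb, fra, caps and Fas3. Of the 33 members in this list, 8 lay in sbb, named above as a corepressor gene. Over all eligible genes there were 13.4 members per Mb. Con, which encodes the adhesion protein Connectin, had none in 87.8 kb, nor had DIP-alpha in 14.4 kb. Somatic, cardiac and visceral muscle regulators carried them in 7 of 27 cases (25.9%, 28.4 per Mb), led by Fas3, how, kirre and Lim1, with Alk and E2f1 among those without. The lists share genes, with sbb, Fas3 and kirre in more than 1 of them.

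Chromatin and RNA regulators had members in 6 of 29 cases (20.7%, 11.1 per Mb), led by pum, Psc, how and bru3. Adar and HDAC4 were among those without. Cell junction, polarity and cytoskeleton genes had them in 5 of 47 cases (10.6%, 10.6 per Mb): pyd, mew, RhoGAP71E, cno and crb. Ank and Ank2 had none. Ion channel, transporter and secretion genes were the lowest of the lists, with 1 of 29 (3.45%, 1.63 per Mb). That gene was Shal, a potassium channel, at rank 423, and the calcium channel genes Ca-alpha1D and Ca-alpha1T, with 3.58 and 70.6 kb of deep intron, had none.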

How the data were processed

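ChIP-seq peak lists of 3 replicates, their pool and the IDR list were used as deposited, on dm6. Replicate lists were called against 1 shared input alignment, per the deposited file descriptions. The IDR threshold was not given in the sources used here, nor were aligner and caller, and read depth is unknown. The deposited signal of column 7 is the authors' own value and served for ranks and description; signals of different replicates are given side by side without a common scaling. From the deposited −log10 q-value, 355 members had q under 0.05. The age label does not read as hours, so the source name's age was used.

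Summits were placed on Ensembl release 115 gene models without transposable elements, on the 6 arms. Sequences came from the NCBI RefSeq assembly of release 6. Tools were SciPy 1.17.1, NumPy 2.4.6, Python 3.11.15, matplotlib 3.10.9 and pandas 2.3.3. Tests over peaks treat peaks as independent and measure no spread between fly lines. Intervals cover counting error only. The threshold was 0.05. Word search, summit-to-flank test and position classes were tested on simulated sequence.

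Genes named are hosts of the 20 strongest members, the 12 hosts with most members, and per list the 4 carriers with the strongest members and 2 without by alphabet, with FoxL1, fkh, CHES-1-like and sbb. The hosts at the distance threshold, those of printed windows and of words 20 bp apart, other carriers with a rank in the list paragraphs and the simj remark were added after values were seen. So were E23 and the ligand genes named without a member. Members, lists and motifs were chosen with earlier results of these data known. Of the list names, 107 of 111, 91 of 96, 68 of 69, 75 of 76, 47 of 51, 58 of 60 and 49 of 53 matched the annotation.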

Additional observations from a re-analysis of the deposited data

How the results depend on the processing

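No paired analysis was possible because there is 1 group. The ratio of the forkhead word at summits to flanks kept its direction and passed under all 11 alternatives planned and both added ones, from 1.40 in windows of lower GC to 3.13 in windows of higher GC, and from 1.85 to 1.89 with a replicate left out. The density ratios also kept direction and call under every alternative run. The member count was 643 at a TSS distance of 2500 bp and 149 at 10000 bp.

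Several comparisons moved, and the cause was not tested. The odds ratio of the word in members against all other IDR peaks no longer passed in windows within 25 bp (1.17), at a TSS distance of 10000 bp (1.40) and for GTAAACA alone (1.165), and against promoter peaks within 25 bp (1.396) and for GTAAACA (1.36). With a replicate left out these ratios ran from 1.19 to 1.27 and from 1.38 to 1.45. Against nearer intronic peaks the ratio passed nowhere. It turned above 1 within 100 bp (1.10), in the upper 50% of the list (1.05), at 2500 bp (1.06) and 10000 bp (1.03) and for the forkhead variant (1.21). With a replicate left out it ran from 0.846 to 0.963, and the odds ratio against intergenic peaks from 1.84 to 1.88. The share found in every replicate was 49.1% to 80.3% under other rules for overlap, and 65.5% to 74.1% with a replicate left out, turning below the other peaks without replicate 3. The share among the strongest 25% ran from 18.1% to 21.3%, and the ratio on 2L from 1.39 to 1.49, with 1.34 in the upper 50%. The odds ratio between forkhead word and replicate overlap turned to 0.929 within 100 bp, without passing. Within 100 bp, 10 words of 7 bases passed, with ACAAATA and ATATTTG among them. At that width 4 motifs passed against flanks, the 3 forkhead words and Scalloped, and 5 passed against other IDR peaks. The Scalloped motif was lower at summits than in flanks within 50 bp, and its direction within 100 bp is not reported here. With flanks 1000 bp away ACAAATA and GTAAATA passed and ATATTTG did not. Chosen after the data were seen were the splits by GC and repeats, the 7-base words against other peaks, other windows for tests within members, against relaxed peaks and for motifs against other peaks, and, for classes, arms and neighbours, a replicate left out and, for the last 2 of these, the upper 50%. Depth is unknown, so its effect on weak members cannot be given.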
